A study of Homo sapiens with 4 samples.

Results

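The 9 genes described here are the ubiquitin-like modifier ISG15, the antiviral membrane proteins BST2, IFITM1, IFITM2, IFITM3 and IFI6, and the double-stranded RNA sensors IFIH1, EIF2AK2 and OAS3, out of 64252 genes in the count table. They were matched by GENCODE symbol to the Ensembl identifiers of the table, and they were chosen on their counts in the comparison described below. Their levels are therefore given as a description with no test. SK-N-BE(2), an established human neuroblastoma cell line, carried either a scrambled short hairpin RNA (sh-Scb) or one against SAPCD2 (sh-SAPCD2), with 2 RNA-seq libraries per group. Both groups were stable lines made with a lentivirus and selected with puromycin, so both expressed a hairpin. The labels do not say whether the 2 libraries of a group came from separate cultures, and p-values then measure only the spread between these libraries.

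Cells that sense viral RNA or receive type I interferon activate transcription factors that include STAT2 and IRF9, which bind the interferon-stimulated response element in promoters and switch on a large set of antiviral genes. ISG15 is attached to other proteins by its own set of conjugating enzymes. The IFITM proteins sit in membranes and hinder viral fusion, BST2 (tetherin) holds budding virus particles at the cell surface, and IFI6 is a small membrane protein with antiviral and anti-apoptotic roles. IFIH1 (MDA5) signals through MAVS when it binds long double-stranded RNA, EIF2AK2 (PKR) phosphorylates the translation factor eIF2α, and OAS3 makes short oligoadenylates when it binds such RNA.

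The letters of the response element stood close to the start of each member whose promoter was at hand. RefSeq promoters on GRCh38.p14, from 250 bases before to 50 bases after the start, were searched on both strands for its core, 2 GAAA repeats with 2 bases between them. IFITM2 had no entry. All 8 members with an entry held the core, against 3.57% of 35116 promoters of that length, and all 8 also held it followed by a C, against 0.795%. Of 103 genes on the other interferon and double-stranded RNA lists with an entry, 35 held the core. A match describes the letters only, and binding was not measured. The stretch around the core nearest the start is printed 5′ to 3′ on the gene's strand, with cores in capitals, to show how alike the elements of genes with very different levels are; for IFI6 all 3 cores are included.

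ISG15: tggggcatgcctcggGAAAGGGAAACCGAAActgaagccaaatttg
BST2: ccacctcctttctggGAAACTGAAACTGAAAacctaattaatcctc
IFITM1: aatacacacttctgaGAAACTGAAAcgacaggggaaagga
IFITM3: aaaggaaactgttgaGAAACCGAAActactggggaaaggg
IFI6: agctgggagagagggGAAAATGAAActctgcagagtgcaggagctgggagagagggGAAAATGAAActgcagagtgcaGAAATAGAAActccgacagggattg
IFIH1: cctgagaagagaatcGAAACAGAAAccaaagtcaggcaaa
EIF2AK2: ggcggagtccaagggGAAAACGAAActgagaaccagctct
OAS3: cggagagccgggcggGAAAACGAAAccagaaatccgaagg

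These stretches lie at chr1:1013369-1013414 on the plus strand (ISG15), chr19:17405730-17405775 on the minus strand (BST2), chr11:314019-314058 on the plus strand (IFITM1), chr11:320871-320910 on the minus strand (IFITM3), chr1:27672261-27672363 on the minus strand (IFI6), chr2:162318681-162318720 on the minus strand (IFIH1), chr2:37156962-37157001 on the minus strand (EIF2AK2) and chr12:112938447-112938486 on the plus strand (OAS3). In ISG15 and BST2 a pair of cores overlapped, beginning 113 and 130 bases before the start. IFIH1 also held an overlapping pair, on the other strand, beginning 159 bases before the start. The nearest core of EIF2AK2 and of IFITM1 began 6 bases before the start and ran across it.

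**Figure D1:**
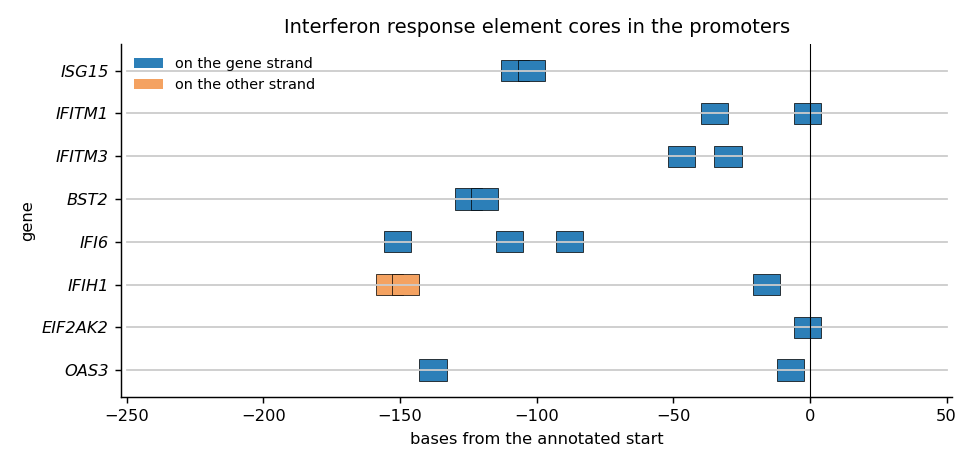
Cores of the interferon-stimulated response element in the promoters of 8 genes, by distance in bases from the annotated start (vertical line), with boxes for cores on the gene strand (blue) or the other strand (orange). Every promoter holds at least 1 core, IFI6 and IFIH1 hold 3, and only IFIH1 has cores on the other strand.

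The libraries held 25347900 to 31850997 counts, and 3 counts, taken as the detection floor, equaled 0.0954 to 0.118 CPM (each count over its library's total, adjusted by edgeR's TMM factor). This floor covers counting error only. SAPCD2, the targeted gene, had 2308 and 2263 counts in sh-Scb and 895 and 1648 in sh-SAPCD2, which was 42.7% and 63.3% of the control mean (log2 fold change −0.91, SE 0.19, adjusted p = 0.0206, edgeR quasi-likelihood test with Benjamini-Hochberg adjustment). The sh-SAPCD2 libraries differed more from each other than the controls did, with a median absolute log2 ratio per gene of 0.280 against 0.111. All 10 neuroblastoma markers were expressed, while 3 of 7 leukocyte markers (CD3E, ITGAM and LYZ) had no count. The summed leukocyte markers stood at 9.58 to 10.3 CPM in sh-Scb and 12.5 to 14.5 CPM in sh-SAPCD2. Most of this was PTPRC (9.69 and 8.93 CPM in sh-Scb, 12.3 and 10.6 CPM in sh-SAPCD2), which was not called. CD14 and CD68 were called higher, CD68 at 1 and 2 counts in sh-Scb and 11 and 12 in sh-SAPCD2. The part of these markers in the values below was not tested. The summed fibroblast markers stood at 353 to 372 CPM in sh-Scb and 401 to 431 CPM in sh-SAPCD2. Of the 5 fibroblast markers 0 were called. The log2 fold changes of DCN (−0.31) and COL1A1 (−0.13) were negative, and those of LUM, PDGFRB and COL3A1 positive. The summed endothelial markers stood at 0.254 to 0.542 CPM and 0.986 to 1.03 CPM, with VWF called higher.

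Levels of the members spanned a wide range, which is compared here as CPM per kilobase of the canonical transcript. In sh-Scb cells EIF2AK2 was highest at 20.0 ± 0.939 (SD, n = 2), followed by IFITM3 at 5.34 ± 1.19 and IFI6 at 5.24 ± 0.425, which did not differ beyond their spread. OAS3 at 3.68 ± 0.134 and BST2 at 3.47 ± 0.317 came next and were also within their spread. IFITM2 stood at 0.630 ± 0.180, ISG15 at 0.199 ± 0.0397 and IFITM1 at 0.109 ± 0.0770, and IFIH1 had no count. In sh-SAPCD2 cells IFITM3 (19.6 ± 1.10), EIF2AK2 (18.6 ± 3.92) and BST2 (17.1 ± 4.47) were level within their spread. IFI6 (9.31 ± 3.89) came next, and its spread overlapped that of BST2. IFITM2 (3.21 ± 0.379) and ISG15 (3.05 ± 0.280) were then level with each other, above OAS3 at 2.35 ± 0.387.

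**Figure D2:**
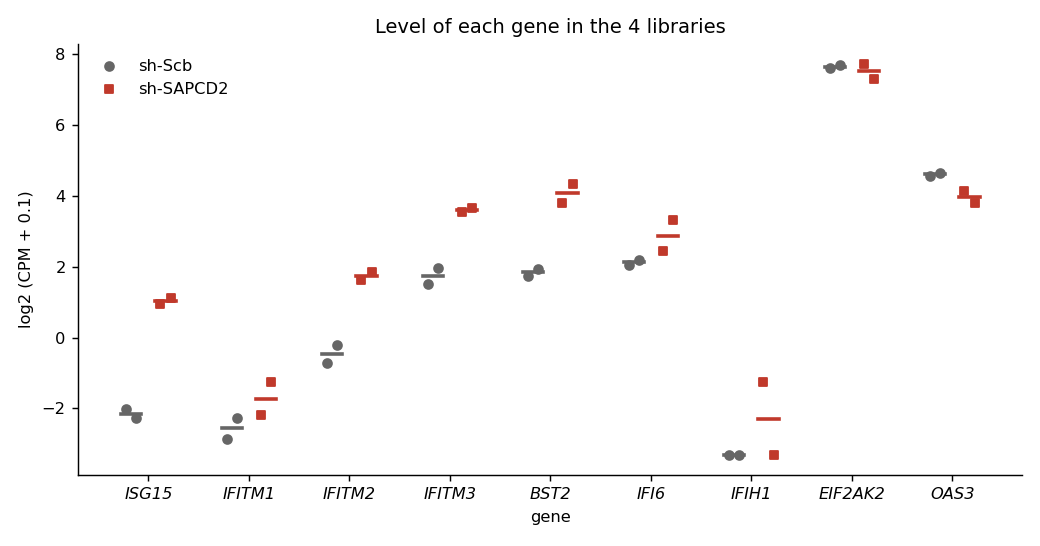
Level of each gene in each library, as log2 of CPM plus 0.1, for sh-Scb (grey circles) and sh-SAPCD2 (red squares), with a bar at the group mean of 2 libraries. ISG15, IFITM2, IFITM3 and BST2 stand well above their controls, EIF2AK2 overlaps and OAS3 is lower.

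Of the 9 genes, 7 passed the filter on low counts; IFITM1 and IFIH1 did not. The fit called 4 of them higher, among 12.4% of all 18779 tested genes called higher, and 1 lower, among 12.5% called lower. Nothing is read from these counts, because the genes were chosen on this contrast. Both sh-SAPCD2 libraries lay above both controls for 6 of the 9, and below both for 1. Among tested genes this was so for 33.5% and 33.4%. The 6 include IFITM1 and the 9 include IFIH1, which were not tested, so the sets differ in that.

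ISG15 (ENSG00000187608, chr1:1001138-1014540, plus strand, 2 exons, coding for 164 residues) was close to the detection floor in control cells. It had 4 and 3 counts in sh-Scb and 46 and 65 in sh-SAPCD2, or 0.145 and 0.109 CPM against 1.81 and 2.07 CPM. Both sh-SAPCD2 libraries were therefore far above both controls, and they were close to each other. In bulk RNA, more cells expressing a gene and more RNA per cell cannot be told apart. Both antisense genes that overlap ISG15 had no count. The log2 fold change was 3.89 (SE 0.44) in edgeR and 3.95 (SE 0.88) in DESeq2. With so few control counts, the ratio of summed counts, scaled for library size, was 15.4, with a 95% exact interval of 7.24 to 39.2 that covers counting error only. Of the enzymes that attach or remove ISG15, USP18, its protease, had 13 and 1 counts in sh-Scb and 15 and 24 in sh-SAPCD2. The activating enzyme UBA7 had 30 counts in both controls and 30 and 32 in sh-SAPCD2, and the conjugating enzyme UBE2L6 had 691 and 648 against 517 and 860. Of the 4 tested genes of the conjugation list, 0 were called by edgeR's test, 0 had an unadjusted p under 0.05 and 0 were called by DESeq2. Of the 4 tested genes related to the IFITM family, 0 were called by edgeR or DESeq2 and 1 had an unadjusted p under 0.05.

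The IFITM genes lie side by side on chromosome 11. IFITM3 (ENSG00000142089, chr11:319676-329475, minus strand, 132 residues) had 76 and 104 counts in sh-Scb and 291 and 391 in sh-SAPCD2. The groups were separate, and the sh-SAPCD2 libraries reached 3.52 and 3.81 times the control mean in CPM (log2 fold change 1.87, SE 0.22). IFITM2 (ENSG00000185201, chr11:303655-309397, plus strand, 131 residues) had 14 and 21 counts in sh-Scb and 75 and 110 in sh-SAPCD2. Its sh-SAPCD2 libraries stood at 4.67 and 5.52 times the control mean (log2 fold change 2.34, SE 0.33). IFITM1 (ENSG00000185885, chr11:310041-315272, plus strand, 124 residues) had only 1 and 3 counts in sh-Scb and 3 and 10 in sh-SAPCD2, a ratio of 3.16 with a 95% exact interval of 0.976 to 13.3. A difference in IFITM1 was not detectable at this depth. An antisense gene that overlaps it, ENSG00000254910, had 12 and 10 counts in sh-Scb and 11 and 10 in sh-SAPCD2, as many as IFITM1 itself or more, and without strand the reads of the 2 cannot be told apart. The family shares sequence among its members and with another annotated gene, ENSG00000288681. Of the 50-base windows of the IFITM1 transcript, 55.1% also occur in a transcript of another gene. This is so for 20.8% of those of IFITM3 and a smaller share of those of IFITM2. For IFITM1, 50.7% of windows are shared with ENSG00000288681, 15.8% with IFITM3 and 8.08% with IFITM2. At 150 bases, the read length, 41.2% of IFITM1 windows were shared, all with ENSG00000288681, and none of IFITM2 or IFITM3. How reads with several matches were assigned is not given in the sources used here. ENSG00000288681 is not among the genes of the count table, so no count of it can be set beside that of IFITM1. Between the family members, sharing was seen at 50 bases and not at the read length. Their split is therefore uncertain for matches shorter than a read.

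BST2 (ENSG00000130303, chr19:17402939-17405630, minus strand, 5 exons, 179 residues) had 90 and 102 counts in sh-Scb and 353 and 637 in sh-SAPCD2. Both sh-SAPCD2 libraries were far above the controls but apart from each other, at 400.4% and 582% of the control mean (log2 fold change 2.30, SE 0.24). MVB12A, a sorting-complex gene that starts near BST2, had 1254 and 1192 counts in sh-Scb and 729 and 1238 in sh-SAPCD2.

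IFI6 (ENSG00000126709, chr1:27666064-27672212, minus strand, 129 residues) gave a less even picture. It had 111 and 124 counts in sh-Scb and 135 and 308 in sh-SAPCD2, or 4.01 and 4.50 CPM against 5.33 and 9.80 CPM. The groups did not overlap, but replicate 2 of sh-SAPCD2 stood 1.84 times above replicate 1. The log2 fold change was 0.83 (SE 0.32) over all libraries, 0.32 without sh-SAPCD2 replicate 2 and 1.20 without sh-SAPCD2 replicate 1. Of its 150-base windows, 10.1% are shared with LINC02574, an overlapping gene on the same strand with no count in any library.

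Of the 3 sensors, EIF2AK2 overlapped between groups, OAS3 was lower and IFIH1 was near 0. EIF2AK2 (ENSG00000055332, chr2:37099210-37157522, minus strand, 17 exons, 550 residues) had 5348 and 5692 counts in sh-Scb and 5394 and 4953 in sh-SAPCD2. In CPM, the sh-SAPCD2 libraries stood on either side of the controls, at 106% and 78.8% of their mean. The log2 fold change was −0.11 (SE 0.16), and it turned to 0.091 without sh-SAPCD2 replicate 2. GPATCH11, which overlaps EIF2AK2, had 1354 and 1402 counts in sh-Scb and 1467 and 1439 in sh-SAPCD2.

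OAS3 (ENSG00000111331, chr12:112938051-112976460, plus strand, 16 exons, 1086 residues) was the member that stood lower. It had 655 and 687 counts in sh-Scb and 439 and 431 in sh-SAPCD2. Both sh-SAPCD2 libraries lay below both controls, at 71.3% and 56.4% of their mean (log2 fold change −0.65, SE 0.16). IFIH1 (ENSG00000115267, chr2:162267074-162318684, minus strand, 16 exons, 1024 residues) had no count in 3 of the 4 libraries and 8 counts in sh-SAPCD2 replicate 1, so no fold is given.

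**Figure D3:**
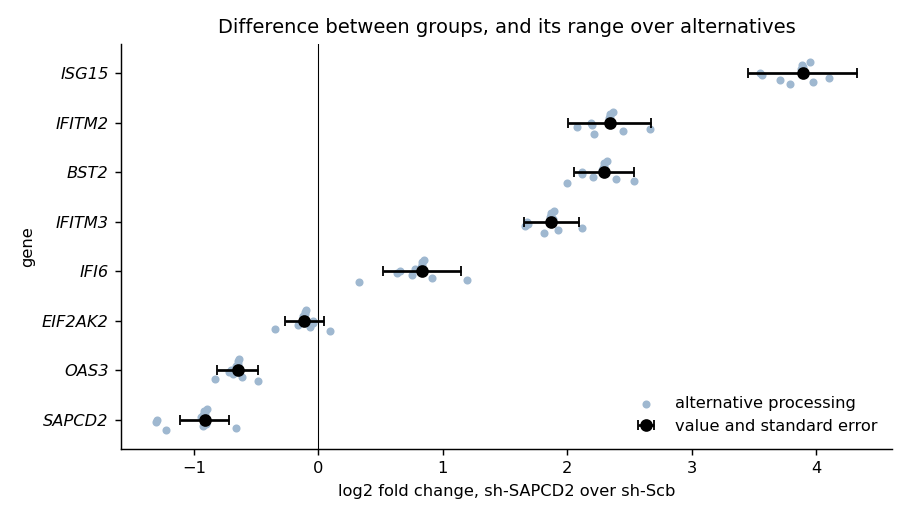
Log2 fold change of sh-SAPCD2 over sh-Scb for the 7 tested genes and SAPCD2. Black points with bars give the value and its standard error, derived from edgeR's F statistic. Blue points give the values under 11 alternative ways of processing the counts. ISG15 spans 3.55 to 4.10, IFI6 spans 0.32 to 1.20, and only EIF2AK2 crosses 0.

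The hairpins against SAPCD2 are 21-base stems, and they are shown because they are the agent that separates the groups. The labels do not give which one the sequenced cells carried. Their guide arms, with the seed (bases 2 to 8) in capitals, pair with SAPCD2 at chr9:137064663-137064683 in exon 6 and chr9:137065607-137065627 in exon 3, both on the minus strand of hg38. The scrambled sequence is not used here.

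sh-SAPCD2 #1: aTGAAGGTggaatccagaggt
sh-SAPCD2 #2: aTCATCTCcaaaccctgcagc

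The longest stretch of any arm that pairs with a member transcript was 9 bases. The seed of the first guide has a site in the transcripts of IFITM1 and IFI6. Bases 2 to 8 of the sense arms of both hairpins have sites in those of IFITM2, IFIH1 and OAS3. How often such short sites occur in other transcripts was not counted.

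For the rest of the pathway, 8 lists of sensors, enzymes, ligands, receptors, conjugating enzymes, other interferon-stimulated genes, eIF2 regulators and IFITM-related genes held 137 genes, 136 of them in the table, of which 93 could be tested. Of these 93, 11 rose and 10 fell by edgeR's test, or 11.8% and 10.8%, beside 12.4% and 12.5% of all tested genes. Their median log2 fold change was 0.10, beside 0.02 over all tested genes. Among the 20 tested genes with the response element core the median was 0.15, with 4 higher and 2 lower (20% and 10%), and among the 54 without it 0.02, with 6 higher and 6 lower (11.1% each way), again beside 12.4% and 12.5% of all tested genes.

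No interferon ligand could be tested: 8 of 10, IFNB1 among them, had no count and the others fell below the filter. Of 19 tested receptor and signaling genes, IRF2 rose (log2 fold change 0.52, SE 0.15) and PIAS1, an inhibitor of cytokine signaling, fell (−0.59, SE 0.13). IRF9, a DNA-binding factor of the response, had 119 and 111 counts in sh-Scb and 148 and 228 in sh-SAPCD2 and was not called. STAT2, its partner, had 619 and 560 counts in sh-Scb and 651 and 735 in sh-SAPCD2. IRF1 had 34 and 35 against 15 and 25, and IRF7 had 13 and 30 against 21 and 30, and neither was called.

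The 32 tested genes of the other interferon-stimulated list included 6 that rose and 2 that fell, or 18.8% and 6.25%, beside 12.4% and 12.5% of all tested genes. ISG20, an exonuclease named here after its values were seen, had 20 and 16 counts in sh-Scb and 46 and 59 in sh-SAPCD2 and rose (SE of the log2 fold change 0.34). HELZ2 (log2 fold change 1.25, SE 0.26), IFI30 (1.12, SE 0.18) and OGFR (1.11, SE 0.20) also rose, and PLSCR1 (−1.09, SE 0.19) and TRIM14 (−0.83, SE 0.11) fell. The classical antiviral genes IFIT1 (81 and 63 counts in sh-Scb, 40 and 36 in sh-SAPCD2) and IFIT2 (61 and 74 against 33 and 36) were not called, nor was IFIT3 (26 and 39 against 47 and 47). MX1 and RSAD2 fell below the filter, and OAS2 had no count.

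Among sensors and adaptors, the tested genes numbered 9. MAVS, the adaptor of IFIH1, fell (4487 and 4550 counts in sh-Scb, 2291 and 2963 in sh-SAPCD2, log2 fold change −0.83, SE 0.10), as did TICAM1, the adaptor of TLR3 (−1.01, SE 0.22). TRIM25, a ubiquitin ligase that activates RIG-I, rose (0.46, SE 0.11). RIGI, which encodes RIG-I, had 36 and 60 counts in sh-Scb and 30 and 28 in sh-SAPCD2 and was not called, and DHX58, a related helicase, fell below the filter. Of 11 tested double-stranded RNA enzymes, DICER1, which cuts double-stranded RNA into short pieces, rose (0.52, SE 0.12). ADAR, which edits double-stranded RNA, had 10084 and 9670 counts in sh-Scb and 9499 and 10748 in sh-SAPCD2. OAS1, a smaller relative of OAS3, had 33 and 18 counts against 7 and 21 and was not called. Of 14 eIF2 kinases and regulators, 2 rose and 4 fell, or 14.3% and 28.6%, beside 12.4% and 12.5% of all tested genes. EIF2B2, a subunit of the eIF2 exchange factor, fell (−1.48, SE 0.13). The kinase EIF2AK1 (−0.54, SE 0.10), EIF2B1 (−0.55, SE 0.10) and EIF2S3 (−0.47, SE 0.10) fell as well, and PPP1R15B, which directs dephosphorylation of eIF2α, rose (0.73, SE 0.11). EIF2S1, the eIF2α substrate of EIF2AK2, had 4315 and 4261 counts in sh-Scb and 3997 and 4271 in sh-SAPCD2.

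**Figure D4:**
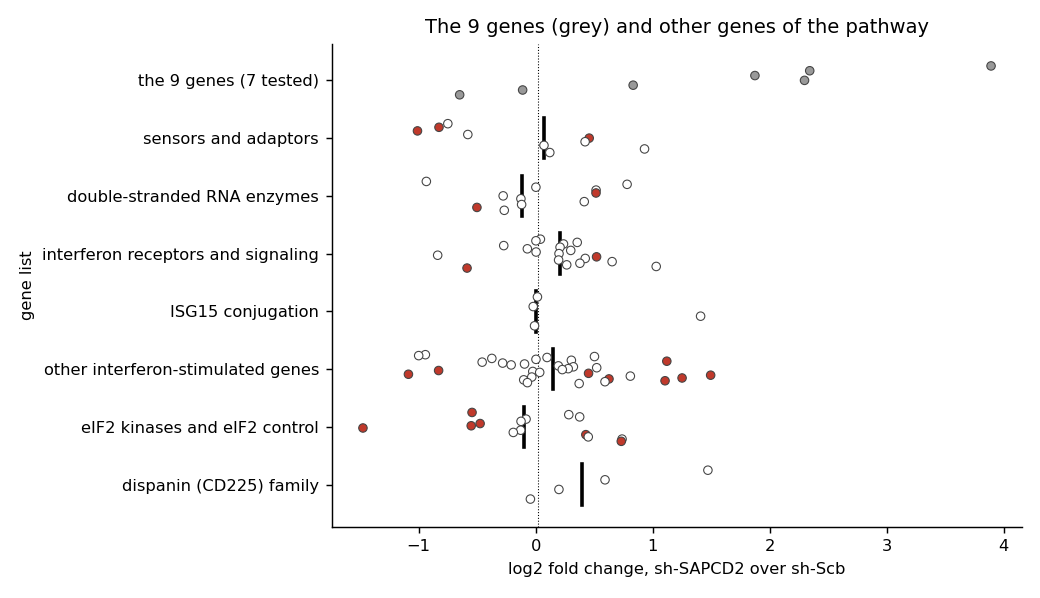
Log2 fold change of sh-SAPCD2 over sh-Scb for the 7 tested genes of this set (grey, no test) and for the tested genes of 7 lists, with called genes filled red, list medians as bars and the median of all tested genes as a dotted line. The list medians lie between −0.12 and 0.40. ISG15, IFITM2, BST2 and IFITM3 stand farther right than any listed gene, but they were chosen on this contrast.

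Across the 15680 genes with a mean of at least 1 CPM, the patterns nearest to ISG15 by Euclidean distance of centred log2 CPM over 4 libraries were those of IL6R (distance 0.228), SCRT2 (0.365) and ITGA11 (0.448). IL6R, a cytokine receptor, had 11 and 10 counts in sh-Scb and 118 and 136 in sh-SAPCD2. Nearest to EIF2AK2 were KIF2A (0.0184), MDM2 (0.0313) and TRPA1 (0.0315).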

How the data were processed

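Paired-end RNA-seq libraries from 4 samples of SK-N-BE(2) cells, with reads of 150 bp, were mapped by the authors to hg38 (HISAT2 2.2.0) and quantified with StringTie, and they deposited a table of whole-number counts per Ensembl gene. How coverage became counts, whether strand was used and how multi-mapped reads were treated are not given in the sources used here. Without strand, reads of a gene and of an overlapping antisense gene cannot be told apart.

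Groups came from the condition in the labels. Counts were scaled by TMM and tested in edgeR 4.0.16 (quasi-likelihood, R 4.3.3) after filterByExpr (minimum count 10, minimum total 15), with Benjamini-Hochberg adjustment over 18779 genes and calls at an adjusted p under 0.05. Unless named as DESeq2's, each SE is the absolute log2 fold change divided by the square root of the F statistic of edgeR's test. For all 7 tested members DESeq2 gave a larger SE, 0.88 against 0.44 for ISG15 and 0.57 against 0.33 for IFITM2. Annotation came from GENCODE 44, which matched 56105 of 64252 genes, and promoters from RefSeq. Scripts used Python 3.11.15 and were tested on simulated data. The members, lists and tests were chosen with earlier results of these data known. Genes named are the members, SAPCD2, at most 5 called genes per list with the smallest p, a fixed set of interferon genes, neighbours of the members and the nearest patterns. Alternatives were DESeq2 1.42.0, its size factors, other filters, a replicate block, a correction for GC content and length, and each library left out. Some genes of the lists are counted in the totals but are not reported here by name.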

Additional observations from a re-analysis of the deposited data

How the results depend on the processing

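ISG15, IFITM2, IFITM3, BST2 and IFI6 stayed positive and OAS3 negative in all 11 alternatives. The log2 fold change of EIF2AK2 reversed to 0.091 without sh-SAPCD2 replicate 2 and was −0.35 without sh-SAPCD2 replicate 1. The count of all genes called higher and lower went from 2326 and 2339 to 1081 and 1180 with no filter on low counts, to 3871 and 3678 with the GC content and length correction, and to 3793 and 3543 with that correction and the replicate block. Listed pathway genes called higher went from 11 to 2 with no filter, 24 with the correction and 21 with both, and those called lower from 10 to 6 with no filter. With one library left out, all genes called higher ranged from 1176 to 4396 and lower from 1146 to 4014, and listed genes higher from 3 to 23 and lower from 4 to 16; the lowest counts came without a sh-Scb library and the highest without sh-SAPCD2 replicate 1. The cause of these shifts was not tested. With the replicate block alone the counts were 2860 and 2701 for all genes and 14 and 12 for listed genes. The labels do not say what the numbers share, and the deviations of same-numbered libraries correlated at 0.0013. IFI6, not called otherwise, was called higher with the replicate block, with the block and the correction, and without sh-SAPCD2 replicate 1, and EIF2AK2 was called lower without sh-SAPCD2 replicate 1. OAS3 was not called with no filter or without either sh-Scb library, and SAPCD2 had an adjusted p of 0.0749 by edgeR with no filter. Depth limits ISG15 in control cells, IFITM1 and IFIH1.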
